A study of Mus musculus with 12 samples.

Results

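The CXC chemokines described here are Cxcl1, Cxcl2, Cxcl5, Cxcl10, Cxcl12 and Cxcl16, 6 of the 42329 entries in a table of gene expression in mouse cancer cells. They were chosen by gene symbol from the deposited table, with results of these data already known, so their values in the 4 groups are given as a description and carry no p-value. RNA was sequenced from MC38, a mouse colon adenocarcinoma cell line, that carried a control guide (sgControl) or a guide directed at the lactate receptor gene Hcar1 (sgHcar1). Cells of each guide received PBS, the saline vehicle, or 20 mM lactate for 24 hours, and each of the 4 groups holds 3 libraries. Separate cultures behind the libraries of a group are not stated in the labels, nor is it stated whether a guide population is a clone or a pool, so the spread between libraries may be technical and the guide cannot be told apart from the population that carries it.

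Chemokines are small secreted proteins that direct the movement of leukocytes through receptors on the responding cells, and the CXC class is named for a pair of cysteines with another residue between them. Cxcl1, Cxcl2 and Cxcl5 carry an ELR motif before these cysteines and attract neutrophils through the receptor Cxcr2, and in tumours they are known as ligands that cancer cells release to draw in myeloid cells. Cxcl10 lacks that motif, is induced by interferons, and attracts activated T cells and NK cells through Cxcr3. Cxcl12 is a homeostatic, mostly stromal ligand of Cxcr4 that is also scavenged by the atypical receptor Ackr3, and Cxcl16 is anchored in the cell membrane, binds Cxcr6 and is released by the proteases Adam10 and Adam17. Transcription of Cxcl1, Cxcl2 and Cxcl10 is classically driven by NF-kB, with interferon-activated factors added at Cxcl10.

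Stretches before the starts of Cxcl1, Cxcl2 and Cxcl10 are shown because those genes are textbook NF-kB targets that were not all highest in the same group. Promoters of 4 of the 6 genes were matched by symbol in RefSeq (GRCm38.p6); Cxcl5 and Cxcl16 are the others. The 250 bases before each start were searched on both strands for GGG and CC with 5 free bases between them, a general form of the NF-kB (kappa B) site, and for GAAA followed by GAAA with 2 free bases between them, a general form of the interferon response element. Capitals mark every stretch covered by a match on either strand, and each sequence ends at the base before the start of its gene. The Cxcl1 stretch is chr5:90891125-90891244 on the plus strand, the Cxcl2 stretch is chr5:90903779-90903898 on the plus strand, and the Cxcl10 stretch is chr5:92348890-92349109 on the minus strand.
Cxcl1: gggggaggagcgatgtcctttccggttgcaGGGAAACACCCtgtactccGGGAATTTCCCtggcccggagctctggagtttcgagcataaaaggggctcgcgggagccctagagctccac
Cxcl2: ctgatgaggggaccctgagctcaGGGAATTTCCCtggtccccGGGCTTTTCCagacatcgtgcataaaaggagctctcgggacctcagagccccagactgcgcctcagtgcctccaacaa
Cxcl10: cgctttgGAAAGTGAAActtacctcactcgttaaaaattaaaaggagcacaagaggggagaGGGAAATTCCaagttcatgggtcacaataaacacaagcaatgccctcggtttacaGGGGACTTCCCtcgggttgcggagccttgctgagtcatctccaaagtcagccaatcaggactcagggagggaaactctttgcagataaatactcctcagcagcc

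Cxcl1 and Cxcl2 share the run GGGAATTTCC, 71 to 62 bases before the start in Cxcl1 and 97 to 88 bases before it in Cxcl2. That exact run was found in 28 of 32851 RefSeq promoters (0.0852%). Read on the reverse strand, the same place in both genes also holds GGGAAATTCC, which Cxcl10 carries on its forward strand 159 to 150 bases before the start, so all 3 promoters share that run. It was found in 32 of the 32851 promoters (0.0974%), and both runs were picked for counting after these promoters had been read. The general kappa B form was present in 45.8% of the promoters, so its presence says little of itself. Cxcl10 holds GAAAGTGAAA 213 to 204 bases before its start, a match to the interferon response element form, which 2.98% of the promoters held, and besides GGGAAATTCC it holds GGGGACTTCC. In the Cxcl12 window there was a match to the kappa B form on its reverse strand, GGGGCGGGCC, 36 to 27 bases before the start. A match of letters is a description and does not show that a factor binds there.

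Expression was deposited by the authors as FPKM, fragments scaled to gene length and library size, a unit that allows levels of different genes to be set side by side. No read totals are given. Depth relative to the deepest library, read from the steps between low values, was 0.746 to 1, with group means of 0.955 (sgControl PBS), 0.943 (sgControl lactate), 0.891 (sgHcar1 PBS) and 0.775 (sgHcar1 lactate). The values of each gene were whole multiples of a smallest step once weighted by depth, so the smallest whole numbers that fit are given below as fragments where a value is low. Libraries of a group correlated at 0.990 to 0.992 across genes, and no pair held identical values. Hcar1 itself was listed at 0 in 11 libraries and at 0.0196 FPKM in sgHcar1 PBS replicate 1, so its loss cannot be seen in RNA. The cell type label fits a list of epithelial markers, 7 of which had an entry, only in part. Epcam and Cdx2 were listed at 0 in every group. Cdh1 was 1.72 ± 0.210 FPKM (SD, n = 3) in sgControl PBS and 4.53 ± 0.140 FPKM in sgControl lactate but 0 in both sgHcar1 groups. Krt18 was 46.2 ± 1.96 and 113 ± 2.0 FPKM in sgHcar1 PBS and lactate, and 0 in sgControl lactate. No other entry of that list reached 1 FPKM in an sgHcar1 group mean, and Krt19 was at 0 there. In sgControl cells, 2 entries reached that level in PBS and 1 in lactate. The 5 fibroblast markers summed to 29.1 to 35.8 FPKM in sgControl libraries and 5.72 to 14.3 FPKM in sgHcar1 libraries, with Thy1 and Lum at 0. The 8 leukocyte markers summed to at most 1.85 FPKM and the 4 endothelial markers to at most 0.821 FPKM. The part of these differences between the guide populations in the chemokine levels was not tested.

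The 6 genes differed in which group they were highest in. Cxcl1, Cxcl2 and Cxcl16 were highest in sgControl cells in lactate, Cxcl5 and Cxcl10 were highest in sgHcar1 cells in lactate, and Cxcl12 was listed at 0 in all 12 libraries. Of the 6 genes, 5 passed the filter of at least 1 FPKM in at least 3 libraries. Cxcl2 and Cxcl5 passed through the group where each was high, and Cxcl12 did not pass. In bulk RNA, fewer cells expressing a gene and less RNA per cell cannot be told apart.

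**Figure D1:**
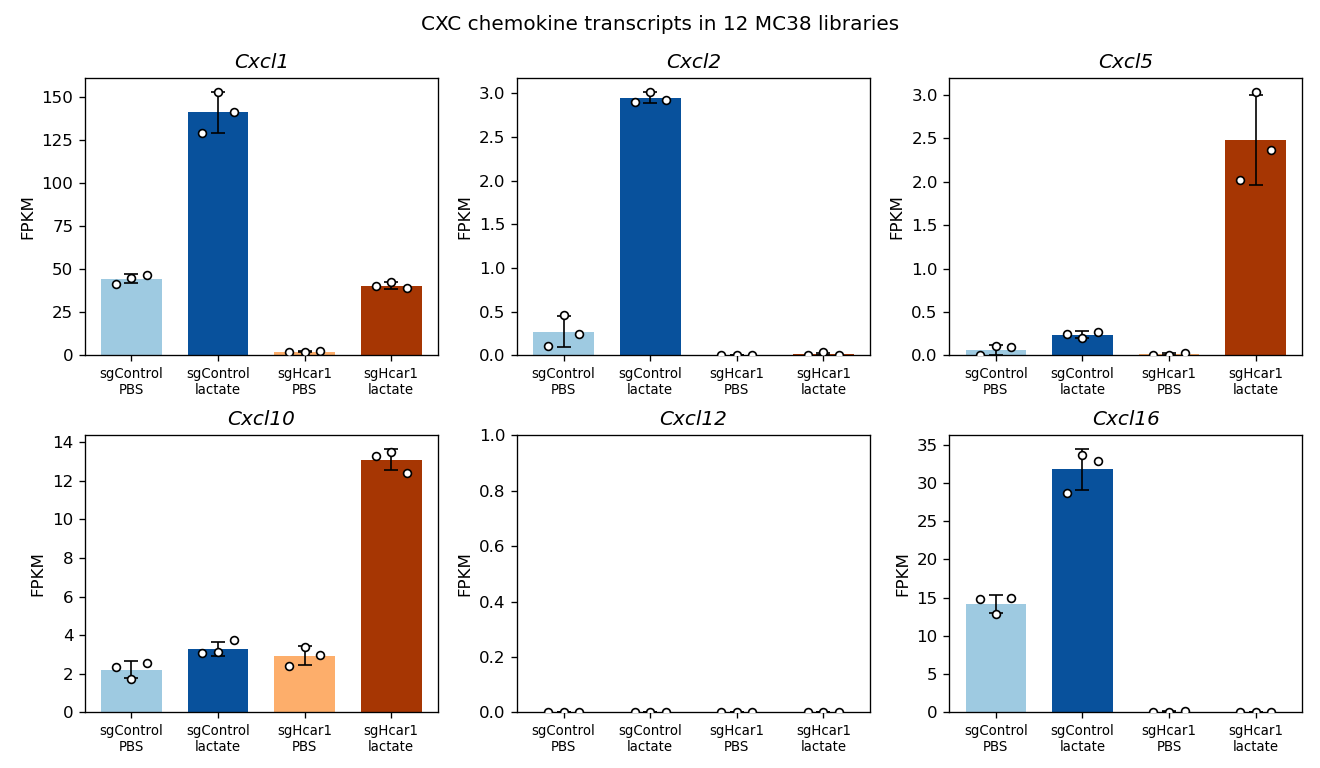
Expression of each of the 6 genes in FPKM (linear vertical axes, a separate scale for each gene) in the 4 groups. Bars are means of 3 libraries, error bars are SD cut off at 0, and white points are libraries; Cxcl1, Cxcl2 and Cxcl16 are highest in sgControl lactate, Cxcl5 and Cxcl10 in sgHcar1 lactate, and Cxcl12 is at 0.

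Among the neutrophil-attracting ligands, Cxcl1 was by far the most abundant. Its FPKM was 41.7, 45.1 and 46.8 in sgControl PBS libraries and 129, 153 and 141 in sgControl lactate libraries. In sgHcar1 cells it was 2.13, 2.01 and 2.29 in PBS and 40.1, 42.5 and 38.9 in lactate. Lactate libraries were above PBS libraries with no overlap under either guide. Mean Cxcl1 was 44.5 ± 2.61, 141 ± 12.1, 2.14 ± 0.137 and 40.5 ± 1.86 FPKM (SD, n = 3) in sgControl PBS, sgControl lactate, sgHcar1 PBS and sgHcar1 lactate, in that order. The level with lactate was 3.17 times that with PBS in sgControl cells and 18.9 times in sgHcar1 cells. On the log2(FPKM + 1) scale these differences were 1.64 ± 0.06 and 3.72 ± 0.06 (standard error of the fit), and their difference was 2.08 ± 0.09.

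The larger ratio of Cxcl1 in sgHcar1 cells came with a far lower starting level. In PBS, Cxcl1 was 20.8 times lower in sgHcar1 than in sgControl cells, and in lactate it was 3.48 times lower. The lactate-treated sgHcar1 libraries (38.9 to 42.5 FPKM) overlapped the PBS-treated sgControl libraries (41.7 to 46.8 FPKM) at the deposited scale. That overlap rested on sgHcar1 lactate replicate 2 and sgControl PBS replicate 1, and ended when either was left out. It also ended after rescaling each library to a sum of 1000000, where Cxcl1 was 92.2 to 102 in sgHcar1 lactate and 129 to 144 in sgControl PBS. Cxcl1 exceeded 97.8% of the 13736 genes tested in sgControl lactate, 90.4% in sgControl PBS and 87.9% in sgHcar1 lactate, but 26.1% in sgHcar1 PBS.

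Cxcl2, which lies next to Cxcl1 and shares its receptor, was seen almost only in sgControl cells. Its FPKM was 0.111, 0.461 and 0.245 in sgControl PBS libraries and 2.90, 3.02 and 2.92 in sgControl lactate libraries. It was listed at 0 in the 3 sgHcar1 PBS libraries and at 0, 0.0343 and 0 in the sgHcar1 lactate libraries. Thus sgControl lactate stood above every other library, sgControl PBS came next, and the sgHcar1 groups overlapped each other. The fragments behind these values were 28 in sgControl PBS, 306 in sgControl lactate, 0 in sgHcar1 PBS and 1 in sgHcar1 lactate. By fragments, Cxcl2 was 11.1 times higher with lactate in sgControl cells, with a 95% counting interval of 7.50 to 16.9 (exact binomial, which covers counting error only). In lactate, sgControl exceeded sgHcar1 by a ratio of 251, with an interval of 44.8 to 9961. The difference in log2(FPKM + 1) was 1.64 ± 0.09 with lactate in sgControl cells and 0.02 ± 0.09 in sgHcar1 cells.

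Cxcl5, the other ELR ligand, had the opposite arrangement. Its FPKM was 0, 0.103 and 0.0916 in sgControl PBS libraries and 0.247, 0.195 and 0.270 in sgControl lactate libraries. In sgHcar1 cells it was 0, 0 and 0.0327 in PBS and 2.02, 3.04 and 2.37 in lactate. Libraries of sgHcar1 lactate stood above all others, the sgControl lactate libraries came next without overlap, and the PBS groups overlapped. These values rest on 6 fragments in sgControl PBS, 22 in sgControl lactate, 1 in sgHcar1 PBS and 189 in sgHcar1 lactate. The ratio of lactate to PBS by fragments was 217 in sgHcar1 cells, with a counting interval of 38.5 to 8629, and 3.71 in sgControl cells, with an interval of 1.46 to 11.2. In lactate, Cxcl5 was 10.5 times higher in sgHcar1 than in sgControl cells, with an interval of 6.71 to 17.1. Differences with lactate in log2(FPKM + 1) were 0.22 ± 0.10 for sgControl and 1.77 ± 0.10 for sgHcar1.

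Cxcl2 and Cxcl5 therefore reached similar top levels, 2.95 ± 0.0654 and 2.48 ± 0.518 FPKM (SD, n = 3), in opposite guide populations. Each remained far below Cxcl1 in the same libraries. Cxcl1, Cxcl2 and Cxcl3 are similar in sequence, and how fragments shared between such copies were assigned is not given in the sources used here. Their split is uncertain to that extent.

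Cxcl10, the interferon-inducible Cxcr3 ligand, was present in every group and highest in sgHcar1 cells with lactate. Its FPKM was 2.33, 1.72 and 2.58 in sgControl PBS libraries and 3.09, 3.12 and 3.73 in sgControl lactate libraries. In sgHcar1 cells it was 2.43, 3.41 and 2.98 in PBS and 13.3, 13.5 and 12.4 in lactate. Lactate and PBS libraries did not overlap under either guide, whereas the guides overlapped in PBS. At the deposited scale sgHcar1 PBS also overlapped sgControl lactate, but not after rescaling each library to an equal sum. Mean Cxcl10 was 2.21 ± 0.440, 3.31 ± 0.363, 2.94 ± 0.493 and 13.1 ± 0.567 FPKM (SD, n = 3) in sgControl PBS, sgControl lactate, sgHcar1 PBS and sgHcar1 lactate. The level with lactate was 1.5 times that with PBS in sgControl cells and 4.45 times in sgHcar1 cells, or 0.43 ± 0.11 and 1.85 ± 0.11 in log2(FPKM + 1). In lactate, sgHcar1 cells held 3.95 times the Cxcl10 of sgControl cells. In PBS the ratio was 1.33, and the guides ceased to overlap when either sgControl PBS replicate 3 or sgHcar1 PBS replicate 1 was left out.

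Cxcl16, the membrane-anchored ligand, was nearly confined to the sgControl libraries. Its FPKM was 14.8, 12.9 and 14.9 in sgControl PBS libraries and 28.7, 33.7 and 32.9 in sgControl lactate libraries. In sgHcar1 cells it was 0.0231, 0.0468 and 0.152 in PBS and 0.0258, 0.0766 and 0.0815 in lactate. Every sgControl library was above every sgHcar1 library, and lactate and PBS libraries overlapped in sgHcar1 cells. With lactate, Cxcl16 in sgControl cells was 2.24 times its PBS level, from 14.2 ± 1.15 to 31.8 ± 2.69 FPKM (SD, n = 3), a log2(FPKM + 1) difference of 1.11 ± 0.08. The sgHcar1 values rest on 10 fragments in PBS and 7 in lactate, against 2013 and 4427 in sgControl cells. The ratio of sgControl to sgHcar1 was 188 in PBS, with a counting interval of 102 to 392, and 520 in lactate, with an interval of 252 to 1293.

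**Figure D2:**
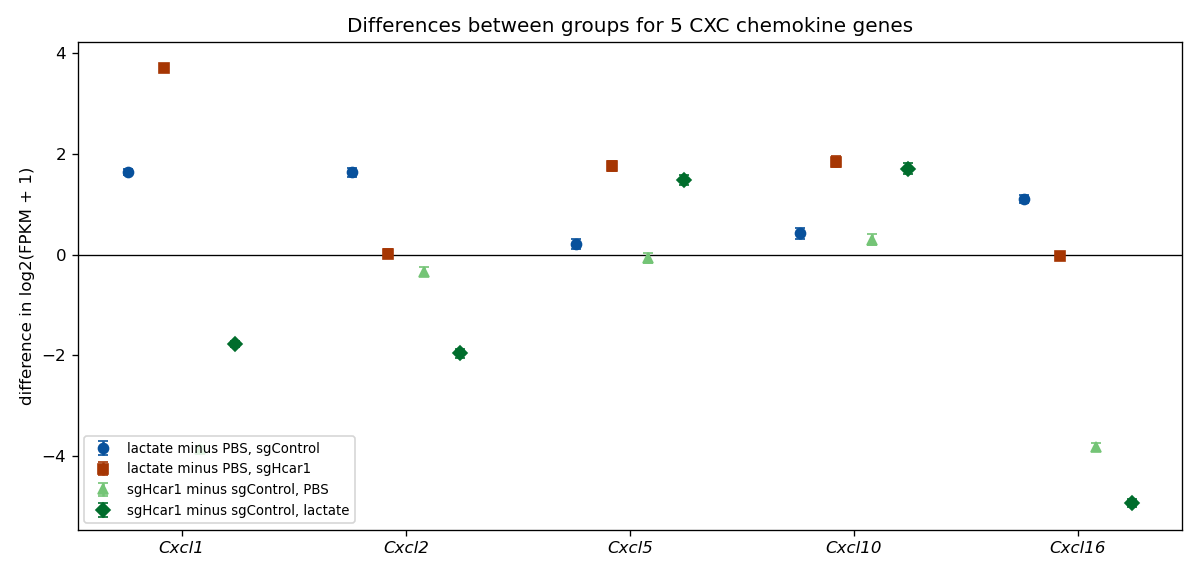
Differences between groups in log2(FPKM + 1) for the 5 genes with values above 0; points are differences of group means (3 libraries a group) and bars are standard errors from the limma fit. Lactate differences under the guides are of similar sign but unequal size for Cxcl1 (1.64 and 3.72) and Cxcl10 (0.43 and 1.85), and Cxcl16 lies at -3.82 and -4.94 in the comparison of guides.

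Counted over the 6 genes, the libraries of lactate and PBS did not overlap, with lactate higher, for 5 genes in sgControl cells and for 3 in sgHcar1 cells. None was lower without overlap in either case. The same was seen for 36.2% (higher) and 34.0% (lower) of all genes tested in sgControl cells, and for 37.7% and 35.9% in sgHcar1 cells. For sgHcar1 against sgControl, 3 genes were lower and none higher without overlap in PBS, where the shares over all genes were 39.6% lower and 39.6% higher. In lactate, 3 were lower and 2 higher, beside 41.0% and 41.3% of all genes. Since the genes were chosen with these contrasts known, nothing is read from these counts. The comparisons share groups of libraries and are not independent of each other.

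The make-up of the summed level changed with the groups. The 6 genes together came to 61.2 ± 2.94 FPKM in sgControl PBS, 179 ± 14.7 in sgControl lactate, 5.17 ± 0.509 in sgHcar1 PBS and 56.1 ± 2.76 in sgHcar1 lactate (SD, n = 3). Cxcl1 made up 72.7%, 78.7%, 41.5% and 72.1% of that sum in the same order. Cxcl16 was next in sgControl cells, at 23.2% and 17.7%, but only 1.43% and 0.109% in sgHcar1 cells. Cxcl10 made up 56.9% of the sum in sgHcar1 PBS and 23.3% in sgHcar1 lactate, against 3.61% and 1.85% in sgControl cells.

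**Figure D3:**
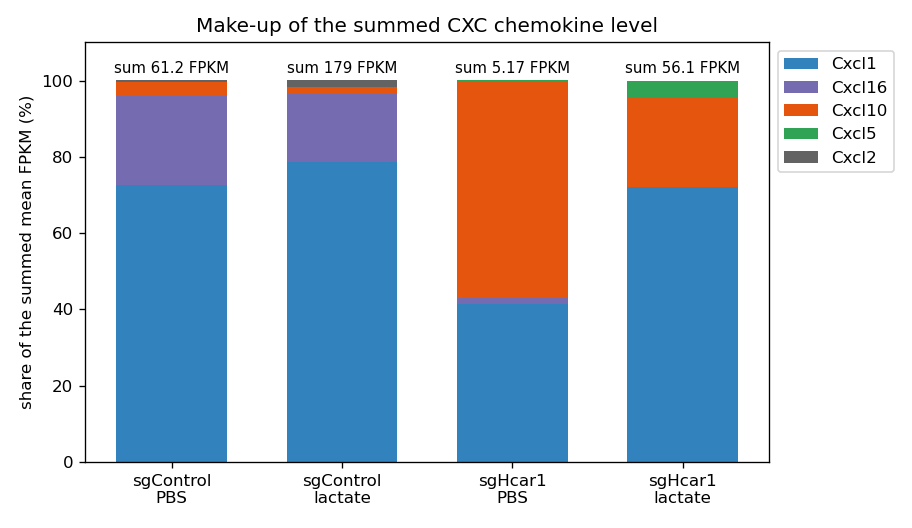
Share of each gene in the summed mean FPKM of the 6 CXC chemokines, in percent, with the sum printed above each bar; Cxcl12 adds 0. Cxcl1 is the main part of 3 bars, while Cxcl10 makes up 56.9% of the small sum in sgHcar1 PBS.

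Of these genes, 3 are neighbours. In RefSeq (GRCm38.p6), Cxcl5, Cxcl1 and Cxcl2 lie on chromosome 5 within 147 kb, at 90759298 to 90761625, 90891245 to 90893121 and 90903899 to 90905938, and 10.8 kb separates Cxcl1 from Cxcl2. Cxcl10 is on the same chromosome at 92346638 to 92348889, 1441 kb beyond Cxcl2. Cxcl12 is on chromosome 6 at 117168535 to 117181368 and Cxcl16 on chromosome 11 at 70454389 to 70459984.

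Cxcl5, at one end of the stretch, was highest in sgHcar1 lactate, whereas Cxcl3 and the adjacent Cxcl1 and Cxcl2 had their highest means in sgControl lactate. Between Cxcl5 and Cxcl1 lie Ppbp and Pf4, platelet chemokines, which stayed at or below 0.341 FPKM in every group mean, Cxcl15, listed at 0, and Cxcl3, another ligand of Cxcr2. Cxcl3 did not pass the filter, and its lactate libraries overlapped between the guides (0.446 to 0.701 FPKM in sgControl, 0.389 to 0.568 FPKM in sgHcar1). Its mean was 0.0283 ± 0.0105, 0.614 ± 0.145, 0.0983 ± 0.0709 and 0.449 ± 0.104 FPKM (SD, n = 3) in sgControl PBS, sgControl lactate, sgHcar1 PBS and sgHcar1 lactate. By fragments, lactate exceeded PBS by a ratio of 21.9 in sgControl cells (counting interval 9.09 to 68.7) and 4.67 in sgHcar1 cells (2.67 to 8.65). Next beyond Cxcl2, Mthfd2l, a mitochondrial folate enzyme, had means between 1.84 and 3.89 FPKM. Ereg, the EGF receptor ligand epiregulin, had means of 0.367 and 0.669 FPKM in sgControl PBS and lactate and of 13.3 and 57.9 FPKM in sgHcar1 PBS and lactate.

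**Figure D4:**
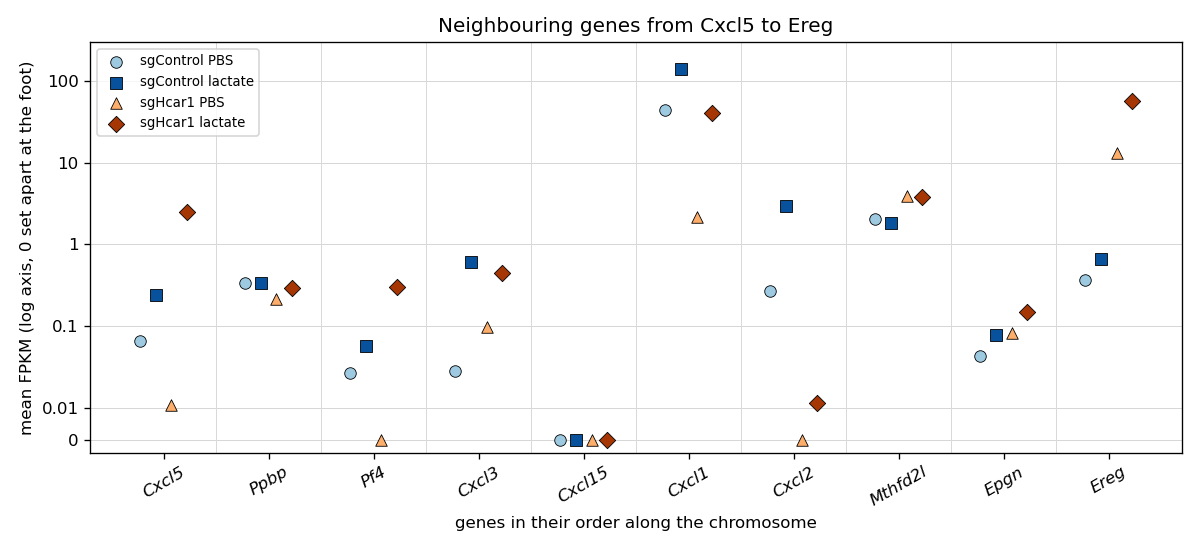
Mean FPKM of 3 libraries in each group (log axis, values of 0 set apart at the foot) for 10 neighbouring genes of chromosome 5, in their order from Cxcl5 to Ereg; spacing is not to scale. Cxcl2 is highest in sgControl lactate (2.95 FPKM), Cxcl5 in sgHcar1 lactate (2.48 FPKM) and Ereg in sgHcar1 lactate (57.9 FPKM).

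The remaining ligands of the family were scarce. Of 9 other CXC ligands looked up, 8 had an entry (all but Cxcl11), and none passed the filter. Their summed mean was 0.461, 1.05, 0.633 and 1.53 FPKM in sgControl PBS, sgControl lactate, sgHcar1 PBS and sgHcar1 lactate. Cxcl9, another interferon-inducible ligand of Cxcr3, did not exceed 0.0619 FPKM in any library, while Cxcl10 in the same groups had means of 2.21 to 13.1 FPKM.

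Genes with the most similar pattern over the 12 libraries were ranked by the root mean square difference of centred log2(FPKM + 1), with Pearson's r given as a description over libraries that share treatment groups. Nearest to Cxcl1 was C3, the central complement component, at a distance of 0.45 (r = 0.991), with means of 15.9, 48.1, 1.09 and 11.3 FPKM in sgControl PBS, sgControl lactate, sgHcar1 PBS and sgHcar1 lactate. Lcn2, an iron-siderophore binding protein, and Nqo1, a quinone reductase, followed at 0.66 and 0.70. Nearest to Cxcl2 were Ankrd1 (0.09), Plet1 (0.12) and Gfpt2 (0.13), each highest in sgControl lactate. Ankrd1, an ankyrin repeat protein, held 71.8, 231, 54.5 and 51.4 FPKM in the 4 groups.

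Nearest to Cxcl5 were Chordc1, Snw1 and Rhod, all at 0.14 and all highest in sgHcar1 lactate, with 81.6, 138 and 40.1 FPKM there. Nearest to Cxcl10 were Ggcx and Trmt10c (both 0.17) and the AP-1 subunit Junb (0.18), whose means were 26.9, 47.1, 38.0 and 148 FPKM. Nearest to Cxcl16 were Afap1l2 (0.12), Fam20a (0.13) and the amino acid transporter Slc6a15 (0.13). Slc6a15 had 11.6 and 24.3 FPKM in sgControl PBS and lactate and was listed at 0 in the mean of both sgHcar1 groups. Distances for Cxcl2 and Cxcl5 are compressed by the pseudocount of 1, since these genes are low.

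Other genes of chemokine signalling were tested across the whole table with limma on log2(FPKM + 1), two-sided, with Benjamini-Hochberg adjustment over 13736 genes and a threshold of 0.05. Of 85 genes on 7 lists (the other ligands, receptors, ligand-cutting proteases, NF-kB components, inducing cytokines with their receptors, regulators of chemokine mRNA stability, and interferon signalling), 61 were tested. With lactate, 43 rose and 10 fell in sgControl cells, where 33.9% and 31.9% of all genes rose and fell. In sgHcar1 cells 34 rose and 15 fell, beside 36.8% and 35.4% of all genes. In sgHcar1 against sgControl cells, 20 were higher and 37 lower in PBS, beside 38.2% and 38.4%, and 22 were higher and 32 lower in lactate, beside 41.3% and 40.9%. The lactate change itself differed for 41 of them, more positive in sgHcar1 cells for 18 and more negative for 23, beside 30.4% and 28.7% of all genes. The lists were chosen with earlier results of these data known, so their counts, here and list by list below, are given as a description. Outside the ligand and receptor lists, genes given with p-values below were named for the largest change past the threshold. Their passing adjusted p-values are in part set by that choice.

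These counts over all genes depend on how libraries are scaled. The FPKM of a library summed to between 310109 and 324562.3 in the sgControl groups, between 362814.6 and 367976.7 in sgHcar1 PBS, and between 411996.2 and 421984.3 in sgHcar1 lactate. Rescaling every library to a sum of 1000000 shifted the median of all genes by -0.12 (log2) for lactate in sgHcar1 cells, -0.16 and -0.37 for the guides in PBS and in lactate, and -0.21 for the difference between lactate changes. The share of higher among called genes then went from 50.9% to 40.0%, from 49.9% to 38.6%, from 50.3% to 31.7% and from 51.4% to 30.1%. Over the listed genes, lactate in sgHcar1 cells then gave 29 higher and 21 lower, and the difference between lactate changes gave 11 and 37. The direction of Cxcl1, Cxcl2, Cxcl10 and Cxcl16 in every comparison described above, and of Cxcl5, was kept under this rescaling.

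Receptors for these ligands were nearly absent apart from Ackr3. Cxcr2, Cxcr3, Cxcr4 and Ackr1 were listed at 0 in all 12 libraries, and Cxcr1, Cxcr5 and Cxcr6 did not exceed 0.204 FPKM in any library. Ackr3, which takes up Cxcl12 without classical signalling, was at 40.5 ± 0.560 FPKM (SD, n = 3) in sgControl PBS and fell to 25.1 ± 1.73 FPKM with lactate, a log2 change of -0.67 ± 0.05 (limma, adjusted p = 5.55e-07). In sgHcar1 cells it was 0.559 ± 0.0697 FPKM in PBS and 0.101 ± 0.0141 FPKM in lactate, lower than in sgControl cells by log2 differences of -4.74 ± 0.05 and -4.57 ± 0.05 (limma, adjusted p = 2.29e-14 and 2.77e-14). Cxcl12, a ligand of Ackr3, was at 0 throughout.

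Of 5 proteases that cut CXC ligands, 4 were tested, and all 4 were lower in sgHcar1 than in sgControl cells in both treatments (median log2 difference -0.75 in PBS and -1.11 in lactate, beside 0.01 and 0.01 over all genes). With lactate, 3 rose and 1 fell in sgControl cells, and none rose and 2 fell in sgHcar1 cells, where 1 rose with a pseudocount of 0.1 or without sgControl PBS replicate 1. Of all genes, 33.9% rose and 31.9% fell with lactate in sgControl cells, and 36.8% and 35.4% in sgHcar1 cells. In sgHcar1 against sgControl cells, 38.4% of all genes were lower in PBS and 40.9% in lactate. Mmp2, a gelatinase that inactivates Cxcl12 by trimming, was 301 ± 6.39 FPKM in sgControl PBS and 401 ± 5.06 FPKM in sgControl lactate, but 0.00714 and 0.0327 FPKM in the sgHcar1 groups. Mmp9, a gelatinase that processes ELR ligands, rose in sgControl cells from 0.941 ± 0.328 to 2.31 ± 0.127 FPKM (log2 change 0.78 ± 0.11, limma adjusted p = 8.70e-05), and its sgHcar1 means were 0.107 and 0.272 FPKM.

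Adam17, a sheddase of Cxcl16, moved in opposite directions under the guides. It rose from 13.4 ± 0.485 to 15.7 ± 0.255 FPKM in sgControl cells and fell from 10.1 ± 0.218 to 8.36 ± 0.311 FPKM in sgHcar1 cells. The log2 changes were 0.21 ± 0.04 and -0.24 ± 0.04 (limma, adjusted p = 3.79e-04 and 9.23e-05), and they differed by -0.45 ± 0.05 (adjusted p = 2.33e-05). Adam10, the main constitutive sheddase, had means of 24.9, 18.5, 14.9 and 10.4 FPKM in sgControl PBS, sgControl lactate, sgHcar1 PBS and sgHcar1 lactate.

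Most NF-kB components rose with lactate under both guides. Of 15 tested, 10 rose and 3 fell in sgControl cells (median log2 change 0.45), and 11 rose and 2 fell in sgHcar1 cells (median 0.84), beside a median of 0.00 over all genes in each case. In PBS, 2 were higher and 12 lower in sgHcar1 than in sgControl cells, with a median difference of -0.57. In lactate 6 were higher and 7 lower, or 5 and 9 after rescaling to equal sums. The lactate change was more positive in sgHcar1 cells for 10 and more negative for 3, or 6 and 4 after rescaling. Over all genes at the deposited scale, 33.9% rose and 31.9% fell with lactate in sgControl cells, and 36.8% and 35.4% in sgHcar1 cells. For sgHcar1 against sgControl, 38.2% were higher and 38.4% lower in PBS, and 41.3% and 40.9% in lactate. The shares for the lactate change were 30.4% more positive and 28.7% more negative. Relb, a subunit of the noncanonical pathway, rose from 12.5 ± 0.580 to 29.4 ± 0.653 FPKM in sgControl cells and from 8.06 ± 0.331 to 41.6 ± 0.953 FPKM in sgHcar1 cells (log2 changes 1.18 ± 0.04 and 2.23 ± 0.04, limma adjusted p = 6.83e-10 and 5.04e-12). Its higher level in sgHcar1 lactate than in sgControl lactate, a log2 difference of 0.48 ± 0.04, was 0.09 after rescaling and no longer passed (limma, adjusted p = 0.0712).

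The inhibitors of NF-kB did not move alike. Nfkbib, which holds NF-kB dimers in the cytoplasm, rose from 12.4 ± 0.590 to 29.3 ± 0.844 FPKM in sgControl cells and from 10.7 ± 0.171 to 79.9 ± 0.535 FPKM in sgHcar1 cells (log2 changes 1.18 ± 0.03 and 2.79 ± 0.03, limma adjusted p = 2.70e-10 and 9.11e-13). Nfkbia, the inhibitor that NF-kB itself induces, fell from 78.8 ± 4.78 to 61.1 ± 4.70 FPKM in sgControl cells and rose from 15.7 ± 0.870 to 22.6 ± 3.38 FPKM in sgHcar1 cells (log2 changes -0.36 ± 0.10 and 0.49 ± 0.10, limma adjusted p = 0.00671 and 7.92e-04). In PBS, Nfkbia was lower in sgHcar1 than in sgControl cells by a log2 difference of -2.26 ± 0.10 (adjusted p = 2.17e-09), beside a Cxcl1 difference of -3.86 ± 0.06 and a Cxcl10 difference of 0.30 ± 0.11.

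**Figure D5:**
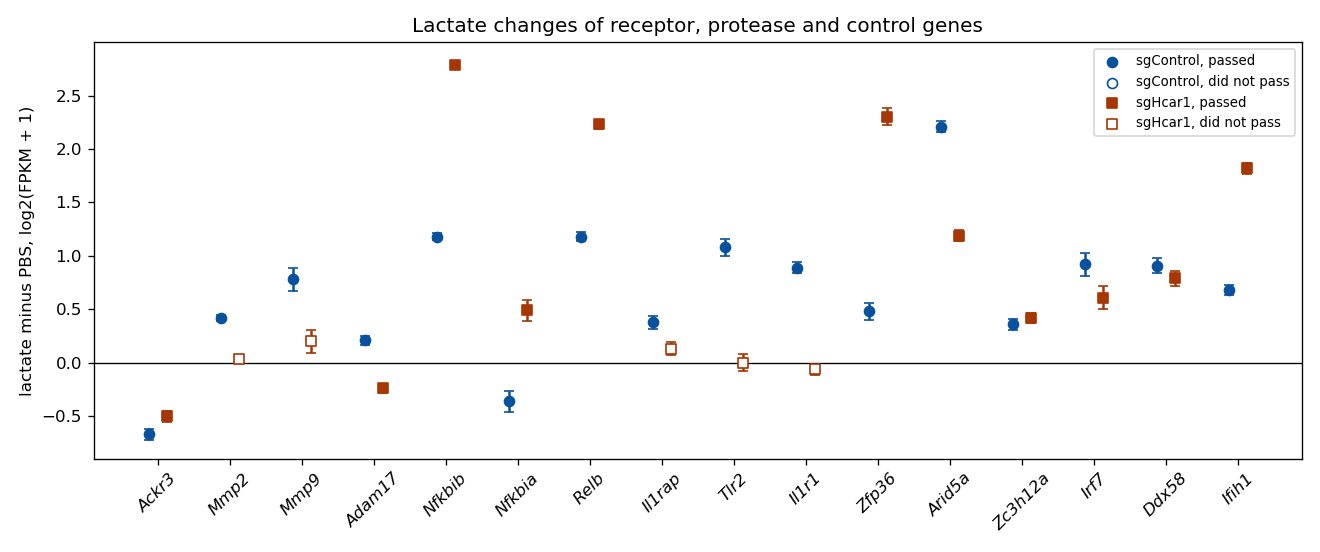
Lactate minus PBS in log2(FPKM + 1) for the 16 named receptor, protease, NF-kB, cytokine receptor, mRNA stability and interferon genes, with standard errors; 3 libraries a group, filled points passed limma's adjusted threshold and open points did not. Adam17 (0.21 and -0.24) and Nfkbia (-0.36 and 0.49) lie on opposite sides of 0 under the guides.

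The classical inducing cytokines other than interferons were at or near 0: the means of Tnf, Il1a, Il1b and Il17a did not exceed 0.127 FPKM in any group. Of 14 tested genes for such cytokines, their receptors and adaptors, 11 rose and 1 fell with lactate in sgControl cells (median log2 change 0.44). In sgHcar1 cells 6 rose and 1 fell (median 0.09), or 6 and 5 after rescaling. The fallen count was 2 under either guide without sgControl PBS replicate 3, and 2 in sgHcar1 cells without sgHcar1 PBS replicate 2 or 3. In sgControl cells it was 0 after rescaling or without the filter. Between guides, 4 were higher and 8 lower in sgHcar1 cells in PBS, and 4 and 7 in lactate, or 3 and 10 after rescaling. The lactate change was more positive in sgHcar1 cells for 3 and more negative for 7, or 1 and 9 after rescaling. Over all genes at the deposited scale, 33.9% rose and 31.9% fell with lactate in sgControl cells, and 36.8% and 35.4% in sgHcar1 cells. For sgHcar1 against sgControl, 38.2% were higher and 38.4% lower in PBS, and 41.3% and 40.9% in lactate. The shares for the lactate change were 30.4% more positive and 28.7% more negative.

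Tlr2, a receptor for bacterial lipoproteins, rose from 1.35 ± 0.179 to 3.96 ± 0.431 FPKM in sgControl cells (log2 change 1.08 ± 0.08, limma adjusted p = 3.83e-07) and was listed at 0 in the sgHcar1 groups. Il1r1, the signalling receptor for interleukin 1, rose from 1.06 ± 0.0904 to 2.83 ± 0.0642 FPKM in sgControl cells (log2 change 0.89 ± 0.05, limma adjusted p = 6.23e-08). In sgHcar1 cells Il1r1 was 8.61 ± 0.416 FPKM in PBS and 8.20 ± 0.438 FPKM in lactate, a change that did not pass. Its co-receptor Il1rap was 7.71 ± 0.196 and 10.3 ± 0.348 FPKM in the sgControl groups and 0.685 ± 0.10 and 0.849 ± 0.122 FPKM in the sgHcar1 groups.

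Regulators of chemokine mRNA stability included genes of opposite action. Of 8 tested, 5 rose and 2 fell with lactate in sgControl cells (median log2 change 0.27), and 5 rose and 3 fell in sgHcar1 cells (median 0.46). In PBS 3 were higher and 4 lower in sgHcar1 cells, or 2 and 5 after rescaling, and in lactate 2 were higher and 5 lower. The lactate change was more positive in sgHcar1 cells for 2 and more negative for 3. Over all genes at the deposited scale, 33.9% rose and 31.9% fell with lactate in sgControl cells, and 36.8% and 35.4% in sgHcar1 cells. For sgHcar1 against sgControl, 38.2% were higher and 38.4% lower in PBS, and 41.3% and 40.9% in lactate. The shares for the lactate change were 30.4% more positive and 28.7% more negative. Zfp36, also called tristetraprolin, which speeds the decay of mRNAs with AU-rich elements such as those of Cxcl1 and Cxcl2, rose from 5.22 ± 0.230 to 7.70 ± 0.336 FPKM in sgControl cells and from 6.84 ± 0.635 to 37.7 ± 4.04 FPKM in sgHcar1 cells (log2 changes 0.48 ± 0.08 and 2.30 ± 0.08, limma adjusted p = 2.01e-04 and 3.75e-10). In PBS the guides differed in Zfp36 by 0.33 ± 0.08 (adjusted p = 0.00222), which was 0.20 and no longer passed after rescaling (limma, adjusted p = 0.0635).

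Arid5a, which protects inflammatory mRNAs from decay, rose from 1.96 ± 0.163 to 12.7 ± 0.485 FPKM in sgControl cells and from 3.99 ± 0.154 to 10.4 ± 0.156 FPKM in sgHcar1 cells (log2 changes 2.21 ± 0.05 and 1.19 ± 0.05, limma adjusted p = 3.00e-11 and 1.46e-09). Zc3h12a, the endonuclease Regnase-1, was 15.1 ± 0.363 and 19.7 ± 1.07 FPKM in sgControl PBS and lactate and 4.77 ± 0.393 and 6.71 ± 0.169 FPKM in sgHcar1 PBS and lactate. It was thus lower in sgHcar1 cells in both treatments (log2 differences -1.48 ± 0.05 and -1.42 ± 0.05, limma adjusted p = 4.70e-10 and 4.99e-10).

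Interferon signalling genes stood beside Cxcl10 in part. Of 19 tested, 14 rose and 2 fell with lactate in sgControl cells (median log2 change 0.21), or 14 and 0 after rescaling. The fallen count was 1 without any of 6 libraries (sgControl PBS replicate 1 or 2, sgControl lactate replicate 1, 2 or 3, or sgHcar1 PBS replicate 1). In sgHcar1 cells 12 rose and 6 fell (median 0.24), or 7 and 7 after rescaling. Between guides, 11 were higher and 8 lower in sgHcar1 cells in PBS, and 10 and 8 in lactate, or 9 and 10 in lactate after rescaling. The lactate change was more positive in sgHcar1 cells for 3 and more negative for 7, or 2 and 15 after rescaling. Over all genes at the deposited scale, 33.9% rose and 31.9% fell with lactate in sgControl cells, and 36.8% and 35.4% in sgHcar1 cells. For sgHcar1 against sgControl, 38.2% were higher and 38.4% lower in PBS, and 41.3% and 40.9% in lactate. The shares for the lactate change were 30.4% more positive and 28.7% more negative.

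Irf7, Ddx58 and Ifih1, named for the size of their change, were higher in sgHcar1 than in sgControl cells already in PBS, where Cxcl10 overlapped between the guides. Irf7, the master factor of interferon production, was 1.12 ± 0.0596 FPKM in sgControl PBS and 19.3 ± 1.01 FPKM in sgHcar1 PBS (log2 difference 3.26 ± 0.11, limma adjusted p = 1.89e-10). Ddx58, which encodes the RNA sensor RIG-I, was 2.31 ± 0.104 and 23.1 ± 0.614 FPKM in the same groups (log2 difference 2.87 ± 0.07, limma adjusted p = 1.06e-11). Ifih1, which encodes the RNA sensor MDA5, rose with lactate from 0.976 ± 0.0639 to 2.17 ± 0.114 FPKM in sgControl cells and from 4.29 ± 0.239 to 17.7 ± 0.433 FPKM in sgHcar1 cells. Its log2 changes were 0.68 ± 0.05 and 1.82 ± 0.05 (limma, adjusted p = 3.19e-07 and 6.62e-11), next to 0.43 ± 0.11 and 1.85 ± 0.11 for Cxcl10. Irf1, a factor that both interferon and NF-kB induce, had means of 17.7, 18.4, 9.50 and 3.71 FPKM in sgControl PBS, sgControl lactate, sgHcar1 PBS and sgHcar1 lactate, and so was lowest in the group with the most Cxcl10. Ifnb1, which encodes interferon beta, had means of 0.0256 and 0 FPKM in sgControl PBS and lactate. In sgHcar1 cells its means were 0.222 FPKM in PBS and 0.903 FPKM in lactate (0.757 to 1.15 FPKM). Ifng was at 0 in every group, and neither interferon gene passed the filter. A link of Ifnb1 to Cxcl10 was not tested. Irf1, Ifnb1 and Ifng were named after their values were seen.

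Log2 differences of low genes depend on the pseudocount. With 0.1 in place of 1, the lactate difference was 3.14 for Cxcl2 in sgControl cells and 4.53 for Cxcl5 in sgHcar1 cells, and the guide difference for Cxcl16 was -6.43 in PBS and -7.64 in lactate. FPKM, fragments and the lack of overlap do not depend on that choice.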

How the data were processed

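RNA-seq of 12 MC38 libraries was used as a table of FPKM deposited by the authors, 1 value per gene and library, the unit being named per the file headers. The tools in the submitters' processing notes are featureCounts 1.5.0-p3 and HISAT2 2.0.5, with build GRCm38, and the fragments that make up each library total are not given in the sources used here. Columns were matched to groups by their letters, the letter of the sgHcar1 columns by elimination. The 6 chemokines and the gene lists were chosen with earlier results of these data known.

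The 13736 genes that reached 1 FPKM in 3 or more libraries entered a limma fit (version 3.58.1, R 4.3.3) of log2(FPKM + 1), 1 mean per group over all 12 libraries and an intensity trend, after the script was tested on simulated data. The p-values measure only the spread between these libraries. Fragments are the smallest whole numbers in proportion to FPKM times relative depth (tolerance 0.05, largest deviation 2.7e-05), and their intervals are exact binomial ones. A ratio of means is given where both means reach 1 FPKM. Read totals are unknown, so no count model was used.

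From each list of receptors or other ligands, genes reaching 1 FPKM in a group mean were to be named, and from the other lists the 3 genes with the largest change past the threshold. Levels of further list genes, and neighbours on the chromosome, were named after their values were seen. Alternatives were median-ratio scaling, rescaling to a sum of 1000000, a pseudocount of 0.1, no filter, a mean of at least 5 FPKM, compared groups only, no trend, a replicate block, and leaving out each library. Promoters came from RefSeq (GRCm38.p6). Protein sequences were not used here. Tables and figures used pandas 2.3.3, scipy 1.17.1, numpy 2.4.6 and matplotlib 3.10.9 under Python 3.11.15.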

Additional observations from a re-analysis of the deposited data

Results flagged for a closer look

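For 12 of the 16 named context genes the lactate change differed between the guides when the difference itself was tested (limma interaction term, two-sided, adjusted over 13736 genes, sgHcar1 minus sgControl, log2, 3 libraries a group). Over all genes tested, 30.4% had a more positive and 28.7% a more negative change in sgHcar1 cells, and most of the 16 genes were named for a large change between groups, so the count is set in part by that choice. It was more positive in sgHcar1 cells for Zfp36 (1.82 ± 0.11, adjusted p = 2.45e-07), Nfkbib (1.61 ± 0.05, adjusted p = 3.62e-09), Ifih1 (1.14 ± 0.07, adjusted p = 2.62e-07), Relb (1.06 ± 0.06, adjusted p = 9.77e-08) and Nfkbia (0.86 ± 0.14, adjusted p = 3.08e-04). It was more negative for Tlr2 (-1.08 ± 0.11, adjusted p = 1.20e-05), Arid5a (-1.02 ± 0.07, adjusted p = 4.50e-07), Il1r1 (-0.96 ± 0.07, adjusted p = 1.44e-06), Mmp9 (-0.59 ± 0.16, adjusted p = 0.00818), Adam17 (-0.45 ± 0.05, adjusted p = 2.33e-05), Mmp2 (-0.38 ± 0.04, adjusted p = 3.17e-05) and Il1rap (-0.25 ± 0.09, adjusted p = 0.0289). Tlr2 was listed at 0 and Mmp2 was near 0 in sgHcar1 cells, where no lactate change could be seen. The difference did not pass for Ackr3 (0.17 ± 0.07, adjusted p = 0.0635), Irf7 (-0.31 ± 0.15, adjusted p = 0.0978), Ddx58 (-0.12 ± 0.09, adjusted p = 0.282) and Zc3h12a (0.06 ± 0.08, adjusted p = 0.523). With limma and a pseudocount of 0.1 the difference no longer passed for Mmp2 (-0.14, adjusted p = 0.629), Mmp9 (-0.45, adjusted p = 0.311) and Il1rap (-0.14, adjusted p = 0.456). Il1rap also failed with no filter on low values (limma, adjusted p = 0.0641) and when sgControl PBS replicate 3, sgControl lactate replicate 2, sgHcar1 PBS replicate 1 or 2, or sgHcar1 lactate replicate 1 or 3 was left out (limma, adjusted p = 0.0578 to 0.0683).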

How the results depend on the processing

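With libraries rescaled to a sum of 1000000, listed genes with a more positive lactate change in sgHcar1 cells went from 18 to 11 and those with a more negative one from 23 to 37; the cause was not tested. Leaving out 1 library gave 0 to 1 chemokines higher without overlap in sgHcar1 than in sgControl cells in PBS (Cxcl10), and 3 to 4 lower. The other counts of chemokines without overlap kept their value with median-ratio scaling, with the rescaled sum and with each library left out, the alternatives run for them. For the listed genes, leaving out 1 library gave 41 to 44 risen and 8 to 11 fallen with lactate in sgControl cells. Without the filter, 1 of the other CXC ligands was called higher with lactate in sgControl cells and 2 in sgHcar1 cells, and 3 were higher in sgHcar1 than in sgControl cells in lactate. With a mean of at least 5 FPKM, 7 instead of 12 NF-kB components were lower in sgHcar1 PBS, where fewer genes were tested. Ackr3's difference between lactate changes, which did not pass as reported, passed as positive with median-ratio scaling or without sgControl lactate replicate 3 or sgHcar1 PBS replicate 3, and as negative with the rescaled sum or a pseudocount of 0.1.

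Replicate numbers did not pair the libraries: deviations of same-numbered libraries correlated at -0.05 to 0.09 over 18 pairs. With the replicate block, 43 listed genes rose and 10 fell with lactate in sgControl cells, the same numbers as without it, and 35 rose and 14 fell in sgHcar1 cells against 34 and 15. Values of Cxcl2, Cxcl5, Cxcl3 and, in sgHcar1 cells, Cxcl16 rest on few fragments, and differences among those at or under about 10 fragments were not detectable at this depth.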
